A study of Mus musculus with 18 samples.

Results

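The comparison described here set Tomato-positive against Tomato-negative cells of normal sternocleidomastoid, a neck muscle, of mice at postnatal day 21, with 3 expression arrays for each population and 6 of the 18 arrays of the series in all. Every mouse carried aP2-Cre and tdTomato on a B6;SJL background. aP2-Cre is a Cre recombinase under the promoter of Fabp4, a fatty acid binding protein of adipocytes and capillary endothelium, and the reporter turns a cell and its descendants red once Cre has acted. Tomato-positive cells are called marked below and Tomato-negative cells unmarked. Both populations thus had the same genotype, which the labels write as aP2-Cre/+;tdTomato/+ except for the marked cells of repeat 1, written aP2-Cre/+;tdTomato. None of these mice carried SmoM2, the hedgehog-activating allele of the tumor mice of the series. The muscle was digested with collagenase B and Dispase II for 1 hour, a step that keeps mononuclear cells and breaks fibres, the cells were sorted by flow cytometry, and their RNA was amplified before labelling. The arrays are numbered as biological repeats 1 to 3 in each population. Whether a repeat is 1 animal or a pool is not given in the sources used here.

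Skeletal muscle is fed by a dense bed of continuous capillaries. Their endothelial cells take up fatty acids for the fibres, set flow by making nitric oxide and endothelin, and hold pericytes by platelet-derived growth factor, Notch ligands and angiopoietins. Fibro-adipogenic cells, tendon cells, satellite cells, pericytes, Schwann cells and leukocytes fill the spaces around fibres and vessels, so the sort splits the muscle into a marked population and a mixture of all the rest.

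All values are deposited log2 intensities, given per array in the order of repeats 1, 2 and 3, and a difference is the marked mean minus the unmarked mean on the log2 scale. Of 22180 genes with a probe set of their own 14844 were bright enough to test, and 5578 (37.6%) passed an adjusted p of 0.05, limma's two-sided test with Benjamini-Hochberg adjustment. Of these, 2647 (17.8% of the tested genes) were higher and 2931 (19.7%) lower in marked cells. The median difference over all tested genes was 0.001 and the middle of the distribution ran from -0.32 to 0.28 (quartiles), so the counts and medians of the families below stand against those values. With so large a share of genes called, a family in which about 1 gene in 5 rose or fell is no different from the array as a whole. The first principal component, 83.7% of the variance, separated the populations. Arrays correlated at 0.972 to 0.981 within marked cells, 0.967 to 0.973 within unmarked cells and 0.792 to 0.829 between them, across genes, which are not independent replicates. Of the called genes 5570 differed in the same direction in all 3 repeats, a count largely fixed by calling them on these same arrays. In bulk RNA, fewer cells of a type and less RNA per cell cannot be told apart.

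The label was checked against Fabp4 and marker genes. Fabp4 stood at 12.44, 12.51 and 12.38 in marked cells, against 10.80, 10.67 and 11.11 in unmarked cells (difference 1.58, adjusted p = 3.99e-05), so its RNA was also plentiful in the unmarked sort. Pecam1, an adhesion molecule of endothelium, stood at 11.11, 11.23 and 11.21 in marked cells, against 8.38, 8.11 and 7.82 in unmarked cells. The mean of 5 blood endothelial markers (Cdh5, Pecam1, Kdr, Tie1 and Tek) was 10.87 to 11.01 in marked and 7.41 to 7.76 in unmarked arrays, above the 40th percentile of each array in both, so the unmarked cells were not free of endothelial RNA. The fibro-adipogenic markers Pdgfra, Dcn and Lum averaged 5.11 to 5.47 in marked and 10.31 to 10.47 in unmarked cells, and Lum was under the 40th percentile on all 3 marked arrays. Myogenic markers (Pax7, Myf5, Myod1 and Myog) averaged 5.31 to 5.44 in marked and 8.41 to 8.86 in unmarked cells, and leukocyte markers (Ptprc, Cd68, Cd3e, Cd79a and Lyz2) 6.0 to 6.47 in marked and 7.33 to 7.84 in unmarked cells. Of these 5 leukocyte markers 4 were called lower in marked cells. Cd68 did not pass the threshold, and the call of Cd79a did not hold in every fit that left out an array. Pericyte and smooth muscle markers (Pdgfrb, Rgs5, Cspg4, Kcnj8, Abcc9 and Myh11) averaged 8.86, 7.38 and 8.42 in marked cells, against 9.60, 9.48 and 9.59 in unmarked cells. Rgs5 and the channel genes Kcnj8 and Abcc9 did not pass the threshold (differences -0.19, -0.52 and -0.78, and in the fit blocked by repeat, adjusted p = 0.0228 for Abcc9), so mural RNA was present in both sorts and its level in marked cells differed between repeats, least in repeat 2. The 14 tested salivary gland genes, of tissue that lies beside this muscle, averaged 6.12, 5.87 and 4.96 in marked and 7.51, 5.81 and 5.06 in unmarked cells, highest in repeat 1 of both populations, though marked repeat 2 came close to marked repeat 1. The part of that RNA in the differences below was not tested. The adipocyte markers Adipoq, Plin1, Cidec and Lep averaged 4.19 to 4.2 in marked and 4.02 to 4.1 in unmarked cells. Cidec and Lep were under the 40th percentile on all arrays of both populations. Of the 2 adipocyte markers tested, 0 passed the threshold.

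**Figure D1:**
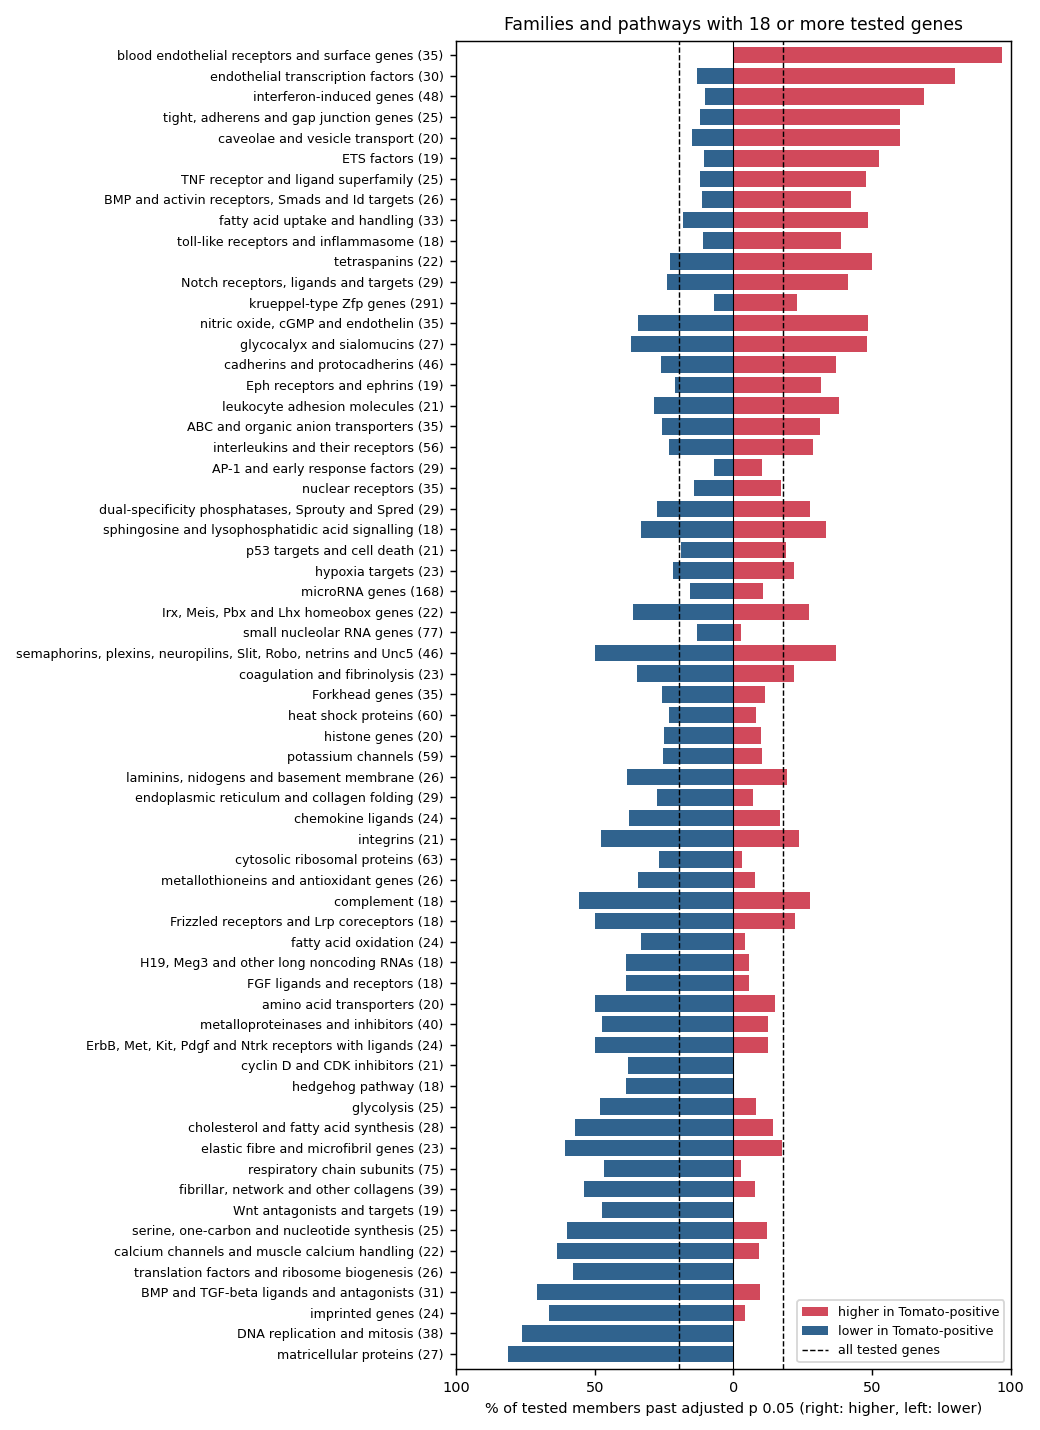
Share of tested members past an adjusted p of 0.05 in each family or pathway with 18 or more tested genes, lists of muscle and other non-endothelial cells left out, in percent, higher in marked cells to the right and lower to the left, with the number tested in brackets. The dashed lines give the shares over all tested genes, 17.8% higher and 19.7% lower. Blood endothelial surface genes lie at the top, and matricellular proteins and DNA replication and mitosis at the bottom.

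The 20 largest increases ran from 4.05 to 4.53. Car4, a carbonic anhydrase tethered to the capillary surface, stood at 10.03, 10.39 and 10.35 in marked cells, against 5.96, 5.91 and 5.31 in unmarked cells, and Aplnr, the apelin receptor, at 10.75, 10.89 and 11.09 in marked cells, against 6.24, 6.69 and 6.28 in unmarked cells. The others were the receptors for vascular endothelial growth factor Kdr and Flt1, the adhesion receptor Adgrl4, the transcription regulators Dach1, Bcl6b and Zfp979, the actin-binding Ablim3, the exchange factor Rasgrf2, the chloride intracellular channel gene Clic5, the carriers Slc28a2 (nucleosides) and Slc26a10, the protease inhibitor Timp4, the carbonic anhydrase relative Car8, the interferon-induced GTPase Gbp4, the surface proteins Ly6c1 and Cd300lg, and Myct1 and Dipk2b. The 20 largest decreases, with symbols of microRNA and small nucleolar RNA genes left out as far as their form shows them, ran from -6.48 to -4.57. They were led by genes of fibroblast and tendon matrix (Lum, Dcn, Dpt, Kera, Ogn, Thbs4, Mmp2, Mfap5, Col3a1, Efemp1, Col6a1, C1qtnf3 and Lrrc17), joined by genes of muscle (the calcium pump inhibitor Mrln, the acetylcholine receptor subunit Chrna1, the cardiac and fetal actin Actc1, Chodl and Asb5), by Capn6 and by DQ267101, a transcript of the Dlk1-Dio3 region taken up below with AF357355 (-6.01) and AF357425 (-5.15), whose form of symbol was left out. Genes were taken for these lists only where the populations did not overlap.

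Growth factors of vessels were divided between the populations. Of 13 tested ligands of the vascular endothelial growth factor, angiopoietin, platelet-derived growth factor and apelin families 5 rose and 6 fell. Pdgfb, the factor by which endothelium holds pericytes, stood at 8.32, 8.42 and 8.67 in marked cells, against 5.82, 5.79 and 5.76 in unmarked cells. Its receptor gene Pdgfrb stood at 8.24, 6.31 and 7.89 in marked cells, against 9.33, 9.23 and 9.22 in unmarked cells, a difference of -1.78 (adjusted p = 0.0107). The ligand was thus higher where the receptor was lower, and for both genes the populations did not overlap, which held for 50.3% of all tested genes. Pdgfd rose by 2.93, the lymphatic growth factor Vegfc by 2.09, Apln, the ligand of Aplnr, by 1.98 and the Tek ligand Angpt2 by 1.09. Vegfa, the main ligand of Kdr, stood at 7.60, 5.98 and 6.63 in marked cells, against 8.50, 7.69 and 7.97 in unmarked cells. That difference of -1.32 (adjusted p = 0.0249) lost its call without marked repeat 2 or marked repeat 3 or unmarked repeat 1 or unmarked repeat 3 (adjusted p = 0.0595 to 0.0794). The Tek agonist Angpt1 (-1.67) fell, as did Pdgfc (-1.13), Pdgfa (-0.64), Pgf (-0.62) and Vegfb (-0.52). Kitl, stem cell factor, stood at 9.95, 10.29 and 10.12 in marked cells, against 7.91, 7.44 and 7.54 in unmarked cells, and its receptor Kit at 6.53, 7.51 and 7.78 in marked cells, against 5.85, 5.62 and 5.40 in unmarked cells. Both rose (2.49 and 1.65), as did Gas6, a ligand of Axl (1.29), and these were the 3 that rose of 24 tested genes of receptor tyrosine kinases and their ligands, the vascular ones aside. The 12 that fell were led by Egfr (5.68, 5.38 and 4.98 in marked cells, against 9.26, 9.33 and 9.04 in unmarked cells) and followed by Pdgfra (-3.43), Axl (-2.82), the hepatocyte growth factor receptor Met (-2.22), Gfra2 (-2.0) and Erbb3 (-1.99).

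Nitric oxide and endothelin genes moved in both directions. Of 35 tested genes 17 rose (48.6%) and 12 fell (34.3%). Nos3, the endothelial nitric oxide synthase, stood at 8.63, 8.83 and 8.98 in marked cells, against 5.67, 5.98 and 5.64 in unmarked cells, and Edn1, endothelin 1, at 9.46, 8.24 and 8.43 in marked cells, against 6.59, 5.57 and 5.76 in unmarked cells. With them rose Npr1, the guanylyl cyclase receptor for atrial natriuretic peptide (3.11), the inducible synthase Nos2 (2.55), the cyclic nucleotide phosphodiesterase Pde2a (2.38) and the calcitonin-like receptor gene Calcrl (1.87). Gucy1a1 (-2.15) and Gucy1b1 (-1.89), the subunits of the cyclase that nitric oxide activates, fell, and Prkg1, the kinase that cyclic GMP activates, stood at 6.25, 4.92 and 5.54 in marked cells, against 8.10, 7.62 and 7.92 in unmarked cells. The phosphodiesterases Pde5a (-2.55) and Pde3a (-2.40) and the prostaglandin synthase Ptgs2 (-2.47) also fell. The marked values of Prkg1 ran in the order of repeats in which the pericyte and smooth muscle markers ran. Of those 6 markers 3 fell, and their part in the values of Prkg1 was not tested.

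**Figure D2:**
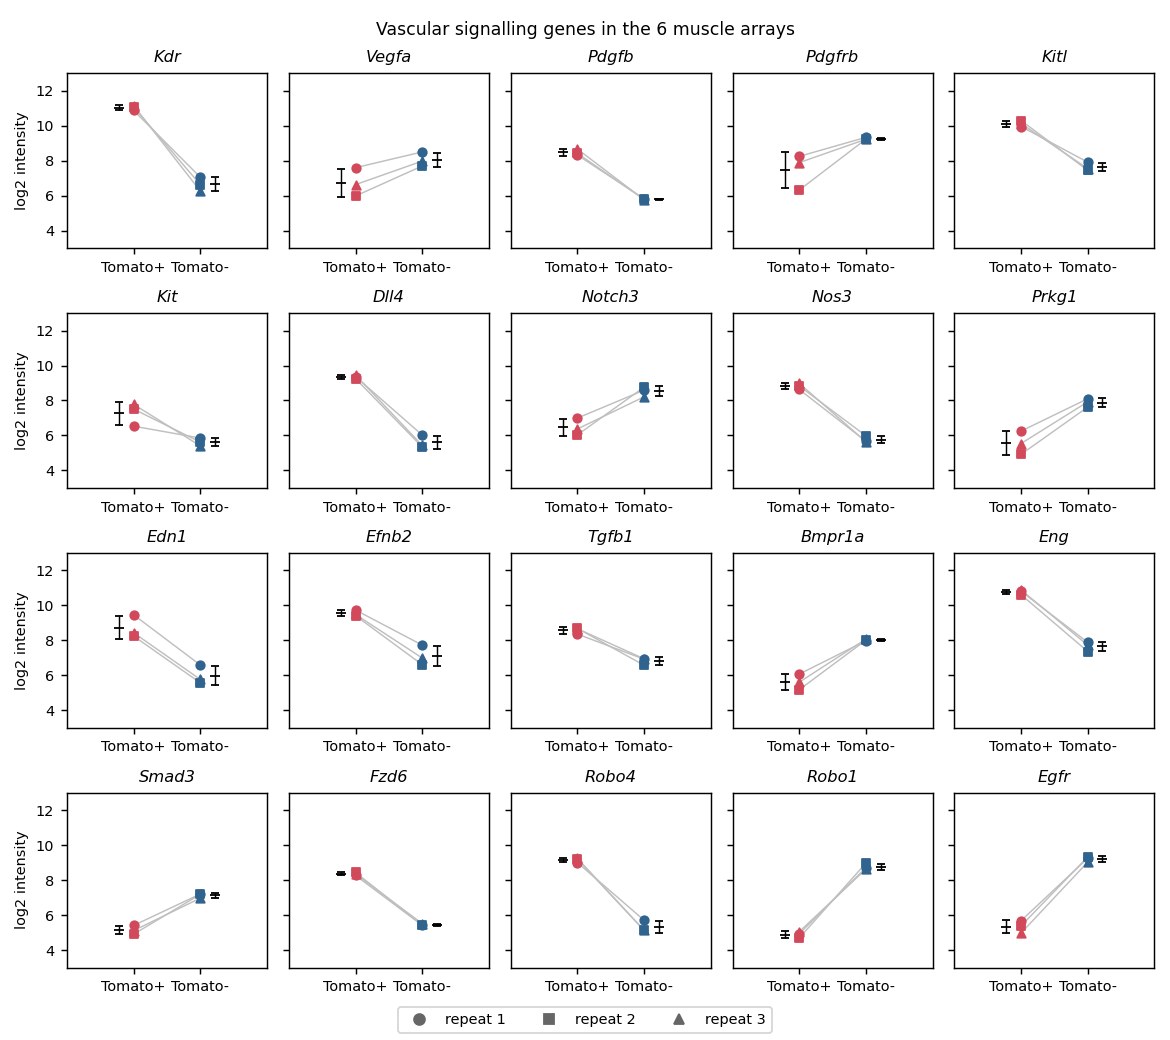
Log2 intensity of 20 vascular signalling genes on each array, marked (Tomato+) cells left and unmarked (Tomato-) cells right, with grey lines joining arrays of the same repeat number and black bars giving mean and SD of 3 arrays. Kdr, Pdgfb, Kitl, Dll4, Nos3, Fzd6 and Robo4 are higher and Robo1, Egfr, Bmpr1a and Smad3 lower on every marked array.

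Among Notch genes, 12 of 29 rose and 7 fell. Dll4, the ligand of arterial and tip cells, stood at 9.36, 9.25 and 9.45 in marked cells, against 6.03, 5.34 and 5.43 in unmarked cells. Notch4, the receptor found mainly in endothelium, rose by 2.21, Jag2 by 2.04, the Fringe glycosyltransferases Mfng by 1.82 and Lfng by 1.49, and the target Hey1 by 1.19. The receptors Notch2 (-2.96) and Notch3 (-2.05) and the targets Heyl (-2.81) and Hey2 (-2.12) fell. Notch3, the receptor of mural cells, stood at 6.99, 6.03 and 6.37 in marked cells, against 8.59, 8.76 and 8.21 in unmarked cells. Dll1, Jag1 and the targets Hes1 and Hes5 did not pass the threshold (differences 0.46, -0.28, 0.43 and -0.24, and in the fit blocked by repeat, adjusted p = 0.0324 for Hes1). Of 19 tested Eph receptors and ephrins 6 rose, among them the arterial ligand Efnb2 (9.73, 9.41 and 9.48 in marked cells, against 7.73, 6.61 and 6.99 in unmarked cells), its venous receptor Ephb4 (2.31) and Efna1 (3.26), and 4 fell, led by Epha3 (-1.92). Axon guidance genes act in both cell worlds, and 17 of 46 rose while 23 fell. The Robo receptors parted: Robo4 stood at 9.01, 9.21 and 9.25 in marked cells, against 5.71, 5.13 and 5.14 in unmarked cells, and Robo1 at 4.93, 4.69 and 5.05 in marked cells, against 8.72, 8.98 and 8.63 in unmarked cells. Both differences were over 3 log2 units, in opposite directions. Sema7a rose by 3.63, the neuropilins Nrp1 and Nrp2 by 2.97 and 2.78, the netrin receptor Unc5b by 2.31 and the semaphorin receptor Plxnd1 by 1.63. Plxdc2 (-3.62), Sema3c (-3.27), the Robo ligand Slit3 (-2.58) and Ntn4 (-2.45) fell.

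The bone morphogenetic protein and TGF-beta pathway separated by role. Receptors, Smads and Id targets rose in 11 of 26 cases (42.3%) and fell in 3, while ligands and antagonists rose in 3 of 31 and fell in 22 (71%). Eng, the endothelial co-receptor, stood at 10.80, 10.61 and 10.88 in marked cells, against 7.88, 7.36 and 7.72 in unmarked cells, and the endothelial type I receptor Acvrl1 rose by 1.68. The Id1 and Id3 genes, direct targets of this signal, rose by 2.15 and 1.16, the inhibitory Smad7 by 1.30 and Bmpr2 by 0.80. The type I receptor Bmpr1a went the other way, at 6.07, 5.17 and 5.60 in marked cells, against 7.97, 8.01 and 8.07 in unmarked cells. Smad3 (-1.98), which carries the TGF-beta signal, and the co-receptor Tgfbr3 (-0.64) fell. Tgfbr1 and Tgfbr2 did not pass the threshold (-0.26 and 0.09). Of the ligands Tgfb1 rose by 1.76 and Bmp6 by 0.98, and Tgfb3 (-2.33), Bmp2 (-1.87), Bmp5 (-1.49) and Inhba (-1.77) fell. The antagonists Chrdl2 (-3.68), Chrdl1 (-3.26) and follistatin, Fst (-1.37), fell.

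Of 11 tested Wnt ligands 0 rose and 0 fell in limma's test, and 0 higher and 1 lower ones had an unadjusted p under 0.05 (differences -0.30 to 0.24). Their receptors did. Fzd6 stood at 8.27, 8.44 and 8.36 in marked cells, against 5.42, 5.43 and 5.52 in unmarked cells, and Fzd4, Lrp5 and Tspan12, which together receive norrin in retinal vessels, rose by 1.32, 1.27 and 0.85. Ror1 (-2.81), Fzd7 (-1.23) and Lgr4 (-1.22) fell, so of 18 receptor genes 4 rose and 9 fell. Of 19 antagonists and targets 0 rose (0 at an unadjusted p under 0.05) and 9 fell, among them the secreted frizzled-related proteins Sfrp4 (-2.85), Sfrp5 (-2.44), Sfrp1 (-1.80) and Sfrp2 (-1.06) and the targets Nkd1 (-1.78), Apcdd1 (-1.51) and Lef1 (-1.13). Axin2, the general target of the pathway, differed by -0.06 (adjusted p = 0.725). Of 18 tested hedgehog pathway genes 0 rose (0 at an unadjusted p under 0.05) and 7 fell. The co-receptors Cdon (-2.71) and Gas1 (-1.88) and the transcription factors Gli3 (-1.65) and Gli2 (-1.38) fell. The ligands Ihh and Dhh and the co-receptor Boc did not pass (-0.09, -0.04 and -0.39). Of 18 FGF family genes 1 rose and 7 fell: Fgfr3 rose by 0.81, and Fgfr4 of satellite cells (-3.39), Fgfr1 (-2.75), Fgf18 (-2.32) and Fgf7 (-2.11) fell. Of 16 genes of the insulin-like growth factor axis 4 rose and 8 fell: Igfbp3 rose by 2.04, and Igfbp6 (-4.11), Irs1 (-3.19), Irs2 (-2.98), Igfbp5 (-2.81) and Igf1 (-1.79) fell.

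Lipid mediator and adhesion receptors followed. S1pr1, the sphingosine 1-phosphate receptor that seals endothelium, stood at 10.57, 10.52 and 10.45 in marked cells, against 6.61, 6.41 and 6.74 in unmarked cells. Of 18 genes of this lipid and lysophosphatidic acid 6 rose and 6 fell. The exporter Spns2 rose by 2.0, and S1pr3 fell by 2.65. Of 15 adhesion G-protein-coupled receptors 4 rose (Adgrl4, Adgrf5, Adgrg1 and Adgrl2, 2.32 to 4.15) and 8 fell, led by Adgrd1 (-3.33) and Adgrg6 (-1.93), the receptor Schwann cells need to myelinate.

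Of 25 junction and barrier genes 15 were higher (60%) and 3 lower. Cldn5, the claudin of endothelial tight junctions, stood at 8.83, 8.57 and 9.25 in marked cells, against 6.16, 5.35 and 6.01 in unmarked cells. F11r, Jam2, Esam, Afdn, Gja1 and Tjp1 rose by 3.49, 3.38, 2.62, 2.48, 1.94 and 1.71. Cldn1, a claudin of perineurium and epithelia, fell by 3.13. Of 20 genes of caveolae and vesicle transport 12 rose and 3 fell: the diaphragm protein gene Plvap rose by 2.69, Cav2 by 2.24 and Cav1 by 1.13, and the muscle caveolin Cav3 fell by 1.02. Of 27 genes of the sugar coat 13 rose and 10 fell (median 0.12). The sialomucin genes Emcn (3.85) and Podxl (3.56) and the sialyltransferases St6galnac3 (3.84), St8sia4 (3.35) and St8sia6 (2.27) rose, and the heparan sulfate core proteins Gpc3 (-3.88), Sdc2 (-3.78), Sdc4 (-2.73) and Gpc6 (-2.03) fell. Of 46 cadherins and protocadherins 17 rose and 12 fell. Pcdh17 (3.96), Cdh23 (3.26), Pcdh12 (3.17) and Fat4 (2.28) rose with the endothelial Cdh5 (3.44), and Fat1 (-3.18), the glial Cdh19 (-2.98), Pcdh7 (-2.78), Pcdh18 (-2.66), the fibroblast Cdh11 (-2.33) and the satellite cell Cdh15 (-2.14) fell. Cdh23, an adhesion protein best known from hair cells of the inner ear, stood at 7.51, 7.54 and 7.89 in marked cells, against 4.37, 4.47 and 4.32 in unmarked cells. Its unmarked values all lay under the percentile needed for testing, so it was tested only through marked cells. A rise was the only call open to it. Tetraspanins rose in 11 of 22 cases, led by Tspan13 (3.66) and Tspan18 (2.22), and fell in 5, led by Cd63 (-2.77), Cd82 (-2.38) and the leukocyte gene Cd53 (-2.18).

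Most matrix genes that were called were lower in marked cells. Of 39 collagen genes 3 rose and 21 fell (53.8%). Those that rose were Col4a1 (1.07) and Col4a2 (1.32), the chains of the common basement membrane collagen, and Col8a1 (0.69). The fibrillar Col3a1 (-4.76), Col1a2 (-4.33) and Col1a1 (-4.24) and the microfibrillar Col6a1 (-4.75) fell. Of 26 laminin and other basement membrane genes 5 rose and 10 fell. Lama3 stood at 7.89, 7.99 and 8.04 in marked cells, against 6.13, 5.99 and 5.80 in unmarked cells, and Lama2, the chain of the muscle fibre's basement membrane, at 5.91, 5.05 and 5.71 in marked cells, against 9.94, 10.08 and 10.14 in unmarked cells. Lama4, of vessel walls, rose by 0.62. Of 27 matricellular genes 0 rose (0 at an unadjusted p under 0.05) and 22 fell (81.5%, median -1.15), among them Postn (-4.52), Matn2 (-3.61), Cilp (-3.50) and Tgfbi (-3.43). Among elastic fibre genes 14 of 23 fell and 4 rose, with Loxl1 at -3.01, while the endothelial Mmrn2 rose by 3.60. Of 40 metalloproteinases and inhibitors 5 rose and 19 fell. The inhibitor gene Timp4 stood at 10.32, 10.78 and 10.28 in marked cells, against 6.71, 6.24 and 5.68 in unmarked cells, and Timp2 (-2.23) and Timp1 (-1.82) fell. Adamts9 (1.91), Mmp28 (1.25) and Adamts18 (1.17) rose, and Mmp2 (-4.94), Adamts20 (-2.83), Adamts5 (-2.13) and Mmp14 (-2.08) fell. Of 21 integrins 5 rose, led by the laminin receptor Itga6 (2.83) and the collagen receptor Itga1 (1.56), and 10 fell, led by Itga8 (-4.10), Itgb8 (-2.86), Itga11 (-2.79) and Itga7 (-2.37), the laminin receptor of muscle.

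Lipid genes were counted by step. Of 33 genes of fatty acid uptake and handling 16 rose (48.5%) and 6 fell. Gpihbp1, which carries lipoprotein lipase across the capillary wall, stood at 11.73, 11.96 and 11.94 in marked cells, against 7.96, 8.13 and 7.54 in unmarked cells. Pparg, the nuclear receptor of fat storage, stood at 8.90, 9.15 and 8.87 in marked cells, against 5.68, 5.45 and 5.72 in unmarked cells. The fatty acid transporter Cd36 rose by 2.47, the lipases Mgll and Lipe by 2.43 and 2.01, Fabp5 by 2.13 and Tcf15, a partner of Meox2 in the endothelium of heart and muscle, by 1.89. Fabp7, a glial fatty acid binding protein, fell by 3.38. Fatty acid oxidation genes rose in 1 (2 with the block or without unmarked repeat 3) and fell in 8 of 24 cases (median -0.21), with the coactivators Ppargc1a and Ppargc1b lowest (-1.69 and -1.54). That count of 8 was 5 without marked repeats 1 or 2 or unmarked repeats 2 or 3. Of 28 synthesis genes 16 fell (57.1%, median -0.59). Scd1, the desaturase of new fatty acids, stood at 5.93, 5.68 and 5.43 in marked cells, against 8.56, 8.57 and 8.24 in unmarked cells. Fasn (-2.34) and Elovl6 (-2.23) fell, and on the cholesterol branch Cyp51 (-1.70), Hsd17b7, Sqle, Fdps and Fdft1 (-1.25) fell. Stard4 (1.52), Acacb (1.48) and Elovl5 (0.93) rose.

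Sugar and energy genes were lower in marked cells in most called cases. Glycolysis genes fell in 12 of 25 cases (48%) and rose in 2. Pfkfb3, whose product speeds phosphofructokinase, rose by 1.44, and Pfkl by 0.62. The genes that fell furthest were the muscle isoforms Pgam2 (-2.53), Slc2a4 (-1.61) and Eno3 (-1.30) with Pdk4 (-1.74), while Pgk1 (-1.21), Pkm (-0.92) and Gapdh (-0.66), which all cells use, also fell. The muscle fibre markers Acta1, Ttn and Ckm averaged 6.0, 5.30 and 6.53 in marked and 9.50, 7.19 and 8.89 in unmarked cells, and their part in these counts was not tested. Of 75 respiratory chain subunits 2 rose (1 without any array but unmarked repeat 3) and 35 fell (46.7%), with a median of -0.37. Serine, one-carbon and nucleotide synthesis fell in 15 of 25 cases, led by Psat1 (-2.20), Rrm2 (-1.69) and Atic (-1.51), while Aldh1l1, a folate enzyme known as an astrocyte marker, rose by 1.68 and Impdh1 by 1.56.

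**Figure D3:**
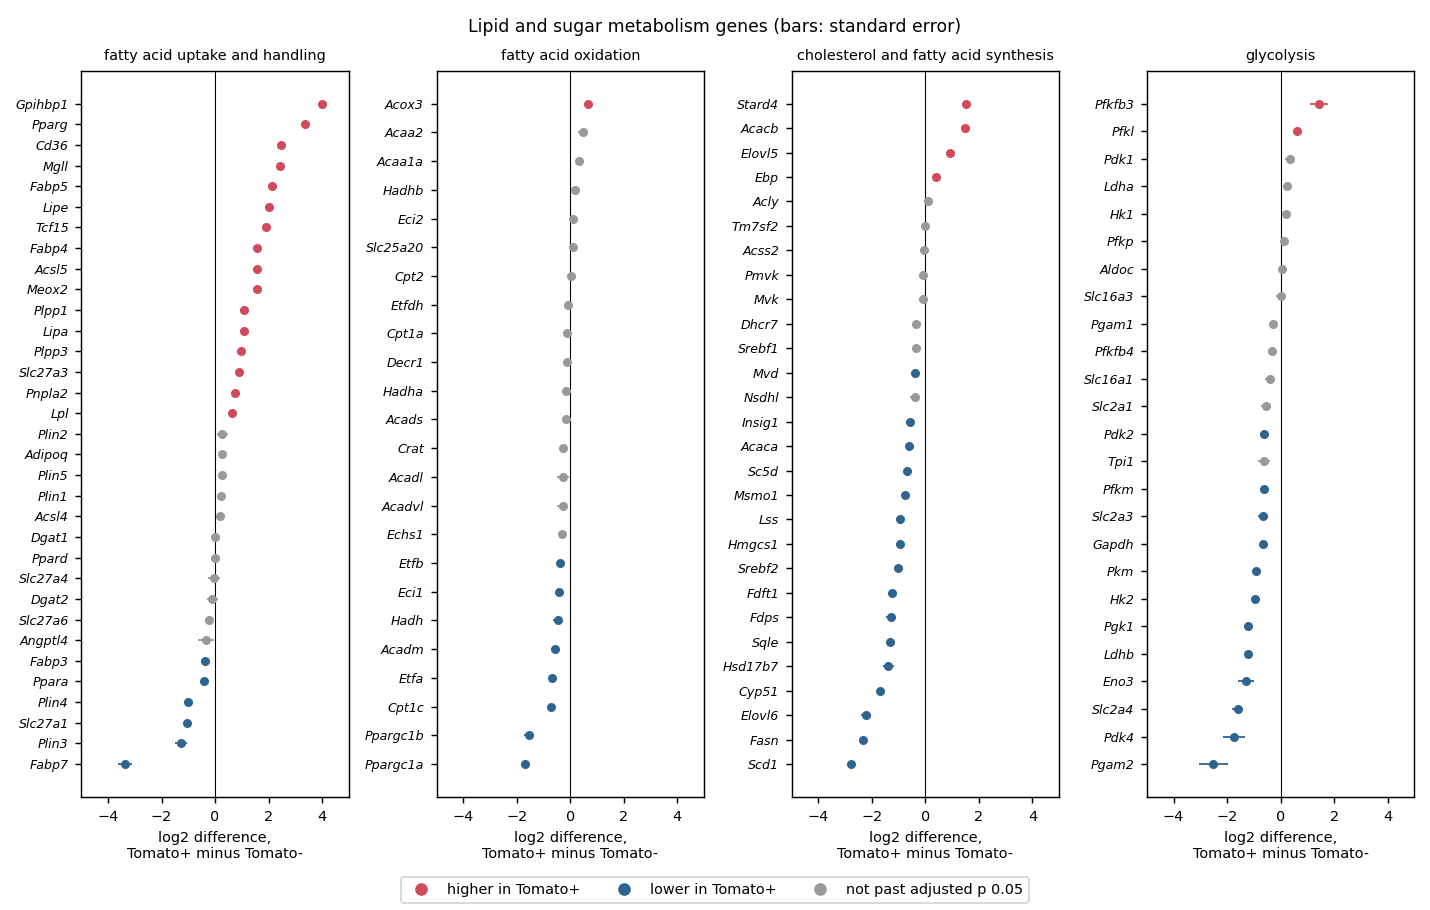
Difference in log2 intensity, marked minus unmarked cells, with its standard error, for every tested gene of 4 metabolic lists. Most called uptake genes lie right of 0 and most called synthesis and glycolysis genes left of it.

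Channels and carriers of the marked cells included those for water and gas. Aqp7, an aquaglyceroporin that passes glycerol, averaged 9.90 ± 0.12 in marked and 6.02 ± 0.27 in unmarked cells (SD, n = 3 each), and Aqp1 stood at 11.37, 11.60 and 11.56 in marked cells, against 8.67, 8.41 and 8.24 in unmarked cells. They were the 2 of 7 tested aquaporins that passed. Of 11 carbonic anhydrases Car4, Car8 and Car7 rose (1.51 for Car7) and 4 fell (-2.14 for the cytosolic Car2), against 6 that fell in the fit blocked by repeat and 6 without unmarked repeat 2. Car3, of muscle and fat, differed by -2.71 and did not pass (adjusted p = 0.0751, and 0.0345 with the block). Of 35 transporters of the ABC and organic anion families 11 rose and 9 fell (median 0.02). The drug efflux pump gene Abcb1a stood at 9.60, 9.84 and 9.85 in marked cells, against 6.73, 6.25 and 6.22 in unmarked cells, and Abcg2 (2.75), Abcc4 (2.44) and Abcb1b (2.03) rose too. The Abca genes that lie in a cluster, Abca8a (-4.37), Abca9 (-3.53), Abca8b (-3.17), Abca6 (-3.09) and Abca5 (-1.81), fell, and probes of such near copies may share signal. Amino acid carriers fell in 10 of 20 cases, with Slc38a4 (-3.33), Slc38a1 (-2.53) and the leucine carrier Slc7a5 (-1.93) lowest, and rose in 3, Slc1a1 (2.01), the taurine carrier Slc6a6 (1.65) and Slc7a7 (1.29). Of 59 potassium channels 6 rose and 15 fell (25.4%, and 10 without unmarked repeat 1), near the share of all genes that fell. Kcnma1 (-3.50) and Kcnmb1 (-2.84), the pore and beta subunit of the large calcium-activated channel of smooth muscle, fell with Kcna1 of axons (-2.82) and Kcnn3 (-2.13). Of 22 calcium channel and store genes 2 rose and 14 fell. The calcium store genes Atp2a1 (-2.74), Casq1 (-1.97), Casq2 (-1.97) and Pln (-1.97) fell, and the inositol trisphosphate receptor genes Itpr2 and Itpr3 rose by 1.13 and 0.63.

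Transcription factor families differed in how many members moved. In the ETS family 10 of 19 rose (52.6%) and 2 fell. Erg, which holds endothelial identity, stood at 10.02, 10.37 and 10.03 in marked cells, against 6.36, 5.94 and 6.04 in unmarked cells, with Fli1 (3.33), Ets1 (2.41), Elk3 (2.30) and Ets2 (1.74). The 2 that fell were Etv5 (-1.44) and Etv1 (-1.24). Of 16 Sox genes 4 rose and 5 fell. The F group Sox18 (4.02), Sox7 (3.88) and Sox17 (3.0) rose, and Sox8 (-2.59), Sox6 (-2.45), Sox9 (-2.06) and Sox5 (-1.10) fell. Gata2, Gata6 and Gata3 rose by 2.93, 1.45 and 0.60, and Gata4 did not pass (0.21). Dach1, a transcription factor gene of coronary artery growth, stood at 9.75, 9.91 and 9.97 in marked cells, against 5.58, 5.52 and 5.38 in unmarked cells. It was the single gene that rose among 14 of the sine oculis, Eya, Dach and Pax families, in which 7 fell, led by Eya4 (-3.73), the satellite cell gene Pax7 (-2.93) and Six2 (-1.62). Mecom (3.48) and Zfp366 (3.44) rose with the endothelial factors. Kruppel-like factors rose in 8 of 17 cases, among them the flow-induced Klf2 (1.21) with Klf12 (1.07) and Klf7 (0.98), and Klf5 fell by 2.05. Of 35 nuclear receptors 6 rose and 5 fell (8 with the block): Nr5a2 rose by 1.97 beside Pparg, and the estrogen receptor gene Esr1 stood at 4.85, 4.59 and 4.57 in marked cells, against 7.84, 8.07 and 7.67 in unmarked cells. Of 10 T-box genes 1, Tbx3, rose by 0.74, and 4 fell, Tbx15 (-1.81) and Tbx4 (-1.31) among them. The regional Hoxa5, Hoxb4 and Hoxd8 rose by 0.92, 0.89 and 0.77 among 16 tested Hox genes, of which 4 rose and 0 fell (0 at an unadjusted p under 0.05). Of the early response genes that tissue digestion can induce, 3 of 29 rose and 2 fell, with Myc (-2.31) and Cebpb (-1.42) lower. Both counts were under the background shares of the unblocked fit. The fit blocked by repeat called 41% of all 14844 genes, 2879 higher and 3214 lower. In it 5 of the 29 rose and 8 fell, and the share that fell was over that of all genes. Without marked repeats 1 or 3 or unmarked repeat 2, 1 rose, and 6 fell without marked repeat 1. Fos and Jun differed by -0.98 and -0.08 and did not pass (with the block, adjusted p = 0.0376 for Fos). The mean of the list varied more between repeats than between populations, at 9.29, 7.85 and 8.76 in marked and 9.22, 8.43 and 9.15 in unmarked cells.

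The many Zfp genes, mostly zinc finger proteins of unknown role, rose in 67 of 291 cases (23%) and fell in 20 (6.87%). Over all tested genes 17.8% rose and 19.7% fell, so the share of Zfp genes that rose was near the background. The count of 67 was 40 without marked repeat 2 and 41 without marked repeat 3. Zfp979 stood at 7.30, 7.66 and 7.37 in marked cells, against 2.98, 2.97 and 3.32 in unmarked cells. Its unmarked values all lay under the 40th percentile of their arrays, so it was tested only through marked cells. Zfp982, Zfp600 and Zfp984 rose by 2.95, 2.64 and 2.25. These belong to clusters of near-identical copies whose probes may read one another, so which copy the RNA came from is uncertain.

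Interferon-induced genes and genes of class I antigen presentation were mostly higher in marked cells. Of 48 tested 33 rose (68.8%) and 5 fell (10.4%), with a median of 1.22. The guanylate-binding protein gene Gbp4 stood at 8.37, 8.76 and 8.53 in marked cells, against 4.35, 4.52 and 4.54 in unmarked cells. Its relatives Gbp9, Gbp5, Gbp7 and Gbp3 rose by 3.95, 3.40, 2.58 and 2.34, the immunity-related GTPase Iigp1 by 3.65, the RNA-binding Ifit1 by 2.50, Bst2, which tethers budding viruses, by 2.45 and the ubiquitin-like Isg15 by 2.14. The Gbp genes lie in clusters of close copies, and probes may share signal between them. Gbp5, Ifi208 and Oas1b lay under the percentile needed for testing on every unmarked array. They were tested only through marked cells, so a rise was the only call open to them. The genes of the list that fell were Ifi205 (-3.62), Ifi30 (-1.70), Ifi204 (-1.45), Ifi207 (-1.30) and Irf4 (-0.69). Of these, Ifi205 and Ifi204 were tested only through unmarked cells. Ifi30 and Irf4 are genes of leukocytes, whose markers were higher in unmarked cells. The part of leukocytes in these falls was not tested. Genes of class I presentation rose in 15 of 16 cases (93.8%), with the immunoproteasome subunits Psmb9 (8.89, 8.84 and 8.88 in marked cells, against 6.02, 7.06 and 6.57 in unmarked cells), Psmb8 (1.81) and Psmb10 (1.54), the trimming peptidase Erap1 (1.61), Tapbp (1.20), H2-T23 (1.62) and H2-K1 (1.30), and H2-Q10 fell by 1.60. The H2 genes too are near copies. Class II genes rose in 0 of 7 cases (0 at an unadjusted p under 0.05, and 1 called without marked repeat 2) and fell in 4, H2-DMb2 (-1.21), H2-Ab1 (-0.93), H2-Aa (-0.83) and H2-Eb1 (-0.65), the last of which lost its call without marked repeat 1 or marked repeat 2 or unmarked repeat 1 or unmarked repeat 3 (adjusted p = 0.0634 to 0.0821). In a fit over all 18 arrays, which pools the spread of the tumor arrays with that of muscle, 0 of these 4 passed (adjusted p = 0.0515 to 0.238). Stat2, which carries the type I interferon signal, rose by 1.55 and Tyk2 and Jak2 by 0.78 and 0.73. The intracellular sensors Ifih1 (2.10), Ddx58 (1.80), Tlr3 (2.08) and Nod1 (1.97) and the caspase Casp4 (1.80) rose too.

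**Figure D4:**
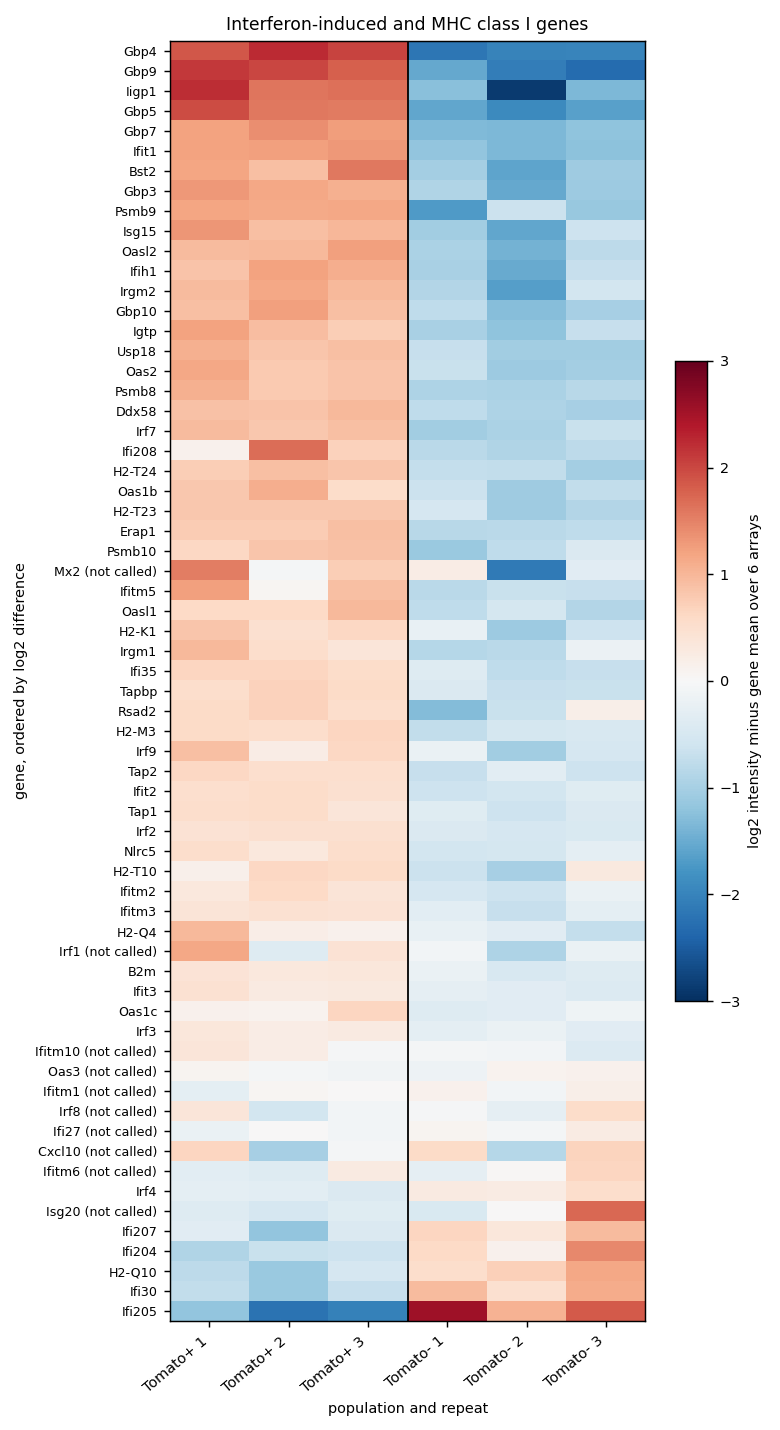
Log2 intensity minus the gene's mean over the 6 arrays for every tested interferon-induced and MHC class I gene, marked (Tomato+) arrays left and unmarked (Tomato-) arrays right, ordered by difference. Gbp4, Gbp9, Iigp1 and Gbp5 head the genes that are high on all 3 marked arrays, and Ifi205 lies at the foot.

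The promoters of these genes were searched for the interferon-stimulated response element, taken as GAAANNGAAA on either strand, in RefSeq windows of 300 bases that end 50 bases after the transcription start (build GRCm38.p6). It was present for 416 of 11576 tested genes with a window (3.59%), for 18 of 26 interferon-induced genes that rose (69.2%), 2 of 4 that fell, 2 of 8 that did not pass and 3 of 11 class I genes that rose. None of 19 blood endothelial surface genes that rose held it (0 of 19). A match is a description of these letters, not a binding site, and the list was written for genes known to answer interferon. The windows of 3 genes that rose are shown with matches in capitals, and 2 matches may share letters. Ifit1 (chr19:34640639-34640938, plus strand) holds 2 matches, Bst2 (chr8:71537423-71537722, minus strand) 2 that overlap and Gbp5 (chr3:142496684-142496983, plus strand) 1.
Ifit1: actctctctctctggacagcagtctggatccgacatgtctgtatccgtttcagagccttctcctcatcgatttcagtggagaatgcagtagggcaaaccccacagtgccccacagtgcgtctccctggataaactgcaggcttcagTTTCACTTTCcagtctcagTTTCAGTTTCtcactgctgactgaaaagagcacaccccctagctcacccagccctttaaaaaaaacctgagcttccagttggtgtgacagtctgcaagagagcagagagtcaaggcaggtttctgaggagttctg
Bst2: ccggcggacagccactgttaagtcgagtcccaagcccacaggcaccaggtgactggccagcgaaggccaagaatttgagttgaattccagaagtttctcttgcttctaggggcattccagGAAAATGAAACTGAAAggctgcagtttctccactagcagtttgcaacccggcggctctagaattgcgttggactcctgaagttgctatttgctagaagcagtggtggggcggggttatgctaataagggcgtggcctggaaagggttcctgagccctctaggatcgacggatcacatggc
Gbp5: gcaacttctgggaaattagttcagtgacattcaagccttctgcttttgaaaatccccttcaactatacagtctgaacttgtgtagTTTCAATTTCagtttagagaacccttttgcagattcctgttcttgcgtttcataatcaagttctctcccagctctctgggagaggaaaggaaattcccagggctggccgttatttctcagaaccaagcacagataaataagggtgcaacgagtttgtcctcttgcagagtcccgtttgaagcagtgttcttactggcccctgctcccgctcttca
The gamma-interferon activation site, taken as TTCNNNGAA, was present for 9 of 26 interferon-induced genes that rose (34.6%) and 4 of 8 that did not pass, against 8.19% of all. An ETS site, taken as CCGGAAGT, was present for 0 of 19 blood endothelial surface genes that rose, against 7.58% of all. The sterol regulatory element, taken as TCACNCCAC, was present for 1 of 12 cholesterol and fatty acid synthesis genes that fell. It was present for 0 of 3 that rose, 0 of 8 that did not pass and 1.41% of all.

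Chemokines and cytokines were split. Of 24 chemokine ligands 4 rose: Cxcl9, an interferon-induced attractant of T cells (8.58, 8.09 and 8.15 in marked cells, against 5.89, 4.98 and 5.12 in unmarked cells), Cxcl12 (1.55) and the membrane-bound Cxcl16 (1.35) and Cx3cl1 (1.28). The 9 that fell were led by the fibroblast chemokines Ccl11 (-3.41) and Cxcl14 (-2.76) and by Ccl5 (-2.34) and Ccl3 (-2.15). In the tumor necrosis factor families 12 of 25 rose (48%) and 3 fell (1 without unmarked repeat 1). The death ligand gene Tnfsf10 stood at 7.76, 7.87 and 7.71 in marked cells, against 4.71, 4.92 and 4.46 in unmarked cells, and its receptor gene Tnfrsf10b rose by 2.33, Fas by 1.79 and the decoy receptors Tnfrsf23 and Tnfrsf22 by 1.77 and 1.68. Casp8, which these receptors activate, rose by 2.57. Ligand, receptor and caspase were thus higher in the same population. Interleukin genes rose in 16 of 56 cases, led by the oncostatin M receptor Osmr (2.43) and Il15 (1.74), and fell in 13, led by Il1b (-2.47) and Il17ra (-2.17). Of complement genes 10 of 18 fell, with the inhibitor Serping1 (-3.41) and the protease C1s1 (-3.04) lowest, and 5 rose, among them the membrane regulators Cd46 (1.10) and Cd59a (0.91). Of 23 coagulation genes 5 rose and 8 fell: Vwf (2.94) and Thbd, thrombomodulin (2.07), rose and F3, tissue factor (-2.40), fell. Of 21 leukocyte adhesion genes 8 rose and 6 fell. Icam2 (2.91), Selp (2.62) and Icam1 (1.99) rose, while Vcam1 fell by 0.78.

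Genes of cell division were lower in marked cells. Of 38 tested genes of DNA replication and mitosis 0 rose (0 at an unadjusted p under 0.05) and 29 fell (76.3%), with a median of -1.01. Mki67, present in every dividing cell, stood at 6.26, 7.42 and 7.68 in marked cells, against 9.09, 9.38 and 9.43 in unmarked cells, and Top2a, the topoisomerase of chromosome separation, at 5.44, 6.47 and 7.13 in marked cells, against 8.33, 8.69 and 8.93 in unmarked cells. Anln (-2.32), Kif11 (-2.31), Ube2c (-2.28), Ccna2 (-1.97) and Cdk1 (-1.78) fell. No overlap between the populations was seen for Mki67 and Top2a. The licensing genes Mcm3 and Mcm5 and Pcna did not pass (-0.30, -0.45 and -0.08, and in the fit blocked by repeat, adjusted p = 0.0151 for Mcm5). Of the cyclin D and inhibitor genes 8 of 21 fell and 0 rose (1 at an unadjusted p under 0.05, 2 with the block and 1 without unmarked repeat 2), and Ccnd1, Cdkn1a and Cdkn1b did not pass (-0.22, 0.46 and -0.12, and with the block adjusted p = 0.044 for Cdkn1a). In promoters, the cell cycle genes homology region, taken as TTTGAA on either strand, was present for 14 of 23 genes of the division list that fell (60.9%), 0 of 7 that did not pass and 14.6% of all tested genes. The list was written for genes known to act in replication and mitosis, and a match describes letters, not a binding site. Those that did not pass included the replication gene Mcm5. The windows of Cdk1, the mitotic kinase (chr10:69352863-69353162, minus strand), and its partner cyclin Ccnb2 (chr9:70421505-70421804, minus strand), which fell by 1.25, hold 2 matches each, in capitals.
Cdk1: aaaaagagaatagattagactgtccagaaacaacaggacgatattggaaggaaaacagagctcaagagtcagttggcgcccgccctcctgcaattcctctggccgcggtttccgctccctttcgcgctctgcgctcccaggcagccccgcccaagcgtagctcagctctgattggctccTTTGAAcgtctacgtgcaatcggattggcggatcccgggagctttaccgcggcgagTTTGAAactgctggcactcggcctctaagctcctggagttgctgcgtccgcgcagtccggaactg
Ccnb2: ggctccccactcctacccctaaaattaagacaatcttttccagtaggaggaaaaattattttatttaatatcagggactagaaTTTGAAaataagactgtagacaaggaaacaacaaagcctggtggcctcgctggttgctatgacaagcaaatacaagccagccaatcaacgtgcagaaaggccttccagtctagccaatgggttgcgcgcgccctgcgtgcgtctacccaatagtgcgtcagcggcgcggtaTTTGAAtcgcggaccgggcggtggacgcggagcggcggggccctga

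Ribosomal, stress and hypoxia genes followed. Cytosolic ribosomal proteins fell in 17 of 63 cases (27%, median -0.28), and this count was 10 without marked repeat 1, 9 without marked repeat 2 and 8 without unmarked repeat 3. Translation and ribosome biogenesis genes fell in 15 of 26 cases and rose in 0 (0 at an unadjusted p under 0.05), with 9 falling without marked repeat 2 and 7 without unmarked repeat 3. Among them Polr1a (-1.13), the large subunit of RNA polymerase I, and Nhp2 (-0.95) fell. Of 26 metallothionein and antioxidant genes 2 rose (1 without marked repeats 1 or 3 or unmarked repeat 2) and 9 fell. Mt2 stood at 7.66, 5.46 and 6.49 in marked cells, against 10.67, 9.99 and 10.66 in unmarked cells, and Mt1 (-2.59) and the secreted enzymes Gpx3 (-2.75) and Sod3 (-1.94) fell. Of 60 heat shock genes 5 rose (3 without marked repeats 1 or 3) and 14 fell, and the relatives Hspa12b, of endothelium, and Hspa12a differed in opposite directions (2.79 and -2.25). Hypoxia targets were even (5 higher and 5 lower of 23), with the hormone gene Stc1 (2.76) and Epas1, the endothelial hypoxia factor (1.49), higher, and the count of 5 lower genes was 3 without marked repeat 3.

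Genes of the nerve-muscle unit were lower in marked cells. Of 23 genes of the dystrophin complex and synapse 17 fell and 2 rose. Chrna1 stood at 4.33, 4.07 and 4.42 in marked cells, against 8.54, 9.35 and 9.30 in unmarked cells, and Musk (-3.68), the kinase that gathers its receptors, and dystrophin, Dmd (-3.56), fell. Those that rose were Utrn (0.75), the widely expressed dystrophin relative, and Agrn (1.02). Myomaker Mymk (-4.40), needed for myoblast fusion, fell, as did the satellite cell genes Megf10 (-4.21) and Calcr (-3.46). Of 35 sarcomere genes 22 fell, and Tpm3, a tropomyosin also found outside muscle, rose by 0.77. Myelin and Schwann cell genes fell in 14 of 22 cases, with Drp2 at -3.51 and Scn7a at -3.20. Mast cell protease genes Mcpt4 (-3.43) and Cpa3 (-2.77) and the neutrophil S100a8 (-4.16) fell. Mcpt4, Cpa3, S100a8 and Chrna1 lay under the percentile needed for testing on every marked array. They were tested only through unmarked cells, so a fall was the only call open to them. Of 17 lymphatic genes 7 rose and 8 fell. Prox1 and Pdpn fell (-3.50 and -3.39), and Flt4, Stab1 and Nts rose (2.15, 1.70 and 1.80).

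Imprinted genes were nearly all lower where called: 16 of 24 fell (66.7%) and 1 rose. Zim1 and Peg3, neighbours on chromosome 7, stood at 5.04, 4.45 and 4.97 in marked cells, against 9.10, 9.49 and 9.19 in unmarked cells, and at 7.64, 7.45 and 7.92 in marked cells, against 10.77, 10.88 and 10.76 in unmarked cells. Plagl1 (-2.12), Ndn (-1.58) and Dlk1 (-1.58) also fell, and Igf2 did not pass (0.24). Slc22a18 rose by 0.75 and lost its call without marked repeat 1 or marked repeat 3 or unmarked repeat 1 or unmarked repeat 3 (adjusted p = 0.0609 to 0.0905).

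The region between Dlk1 and Dio3 on chromosome 12 is an imprinted domain whose maternal copy makes long RNAs, Meg3 and Rian among them, that carry many microRNAs and small nucleolar RNAs. It was singled out after its values were seen. By the gene order of the RefSeq table it spans 103 genes, of which 55 were on the array and 28 were tested. Of these 26 fell, 0 rose (0 at an unadjusted p under 0.05) and 2, Mir540 and Mir758, did not pass (-0.08 and -0.29), with a median of -1.62. Meg3 stood at 6.72, 6.09 and 6.40 in marked cells, against 10.17, 9.62 and 9.80 in unmarked cells, and Rian at 6.30, 5.0 and 5.82 in marked cells, against 10.20, 10.18 and 10.07 in unmarked cells. The small nucleolar RNA transcripts AF357355 (-6.01), AF357425 (-5.15), AF357426 (-3.74), DQ267101 (-4.91) and DQ267102 (-4.19) fell. AF357355 stood at 5.45, 3.25 and 4.66 in marked cells, against 10.68, 10.21 and 10.50 in unmarked cells. The 40th percentiles of the arrays were 4.47 to 4.54, so 1 of its 3 marked values lay under them. Mir493, Mir3070a, Mir3070b, Mir370, AF357426, Mir543, Mir654, Mir544, Mir453 and Mir377 lay under them on all 3 marked arrays. These genes were tested only through their unmarked values, so a fall was the only call open to them. Of 168 tested microRNA genes on the whole array 18 rose and 26 fell (27 and 31 in the fit blocked by repeat), 18 of the 26 in this region and 0 of the 18.

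The region's 20 tested microRNA genes held 39 mature microRNAs in RefSeq with 36 different seeds (bases 2 to 8), 2 of which were shared. The 6 that fell furthest were Mir544 (-3.95), Mir453 (-3.86), Mir370 (-2.86), Mir493 (-2.65), Mir377 (-2.55) and Mir3070b (-2.10). All 6 are among the genes named above that were tested only through unmarked cells. Mir544 stood at 2.80, 3.05 and 2.74 in marked cells, against 6.78, 6.58 and 7.06 in unmarked cells. A probe set of this array reads RNA that holds the hairpin and does not tell the long precursor from the mature microRNA. The mature sequences are shown for both arms where RefSeq has them (build GRCm38.p6), with the seed in capitals.
mmu-miR-544-5p: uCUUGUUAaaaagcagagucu
mmu-miR-544-3p: aUUCUGCAuuuuuagcaagcuc
mmu-miR-453: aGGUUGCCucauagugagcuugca
mmu-miR-370-5p: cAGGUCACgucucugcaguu
mmu-miR-370-3p: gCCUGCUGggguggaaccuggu
mmu-miR-493-5p: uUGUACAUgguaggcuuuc
mmu-miR-493-3p: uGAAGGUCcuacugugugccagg
mmu-miR-377-5p: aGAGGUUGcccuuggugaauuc
mmu-miR-377-3p: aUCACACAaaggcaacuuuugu
mmu-miR-3070-5p: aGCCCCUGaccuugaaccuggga
mmu-miR-3070-2-3p: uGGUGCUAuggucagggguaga
The seed AGGUCAC of miR-370-5p is shared with miR-1193-3p, whose gene Mir1193 fell by 1.46. Outside the region Mir99a fell by 3.61, and Mir28c, Mir3097, Mir542 and Mir335 rose by 2.45, 2.23, 1.95 and 1.41.

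**Figure D5:**
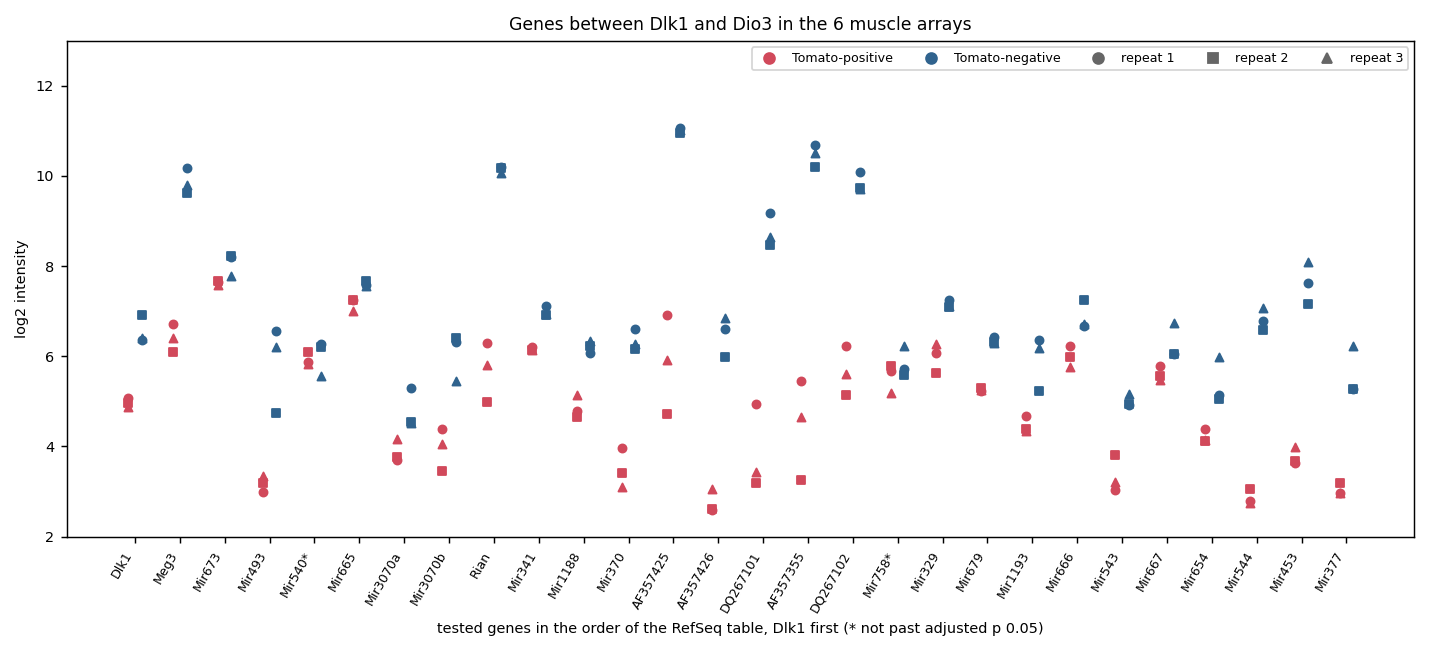
Log2 intensity of the 28 tested genes between Dlk1 and Dio3, in gene order, with marked arrays in red to the left and unmarked arrays in blue to the right of each gene and a symbol for each repeat. Marked arrays lie below unmarked ones for all genes but Mir540 and Mir758.

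Some families showed little. Of 87 tested olfactory receptor genes 7 rose and 4 fell, under the background shares (7 fell with the block, 3 rose without unmarked repeat 3 and 4 without marked repeat 2, and 2 fell without unmarked repeat 1 or marked repeats 2 or 3, and 7 without marked repeat 1), with Olfr1396 (2.51) highest and Olfr558 (-2.44), known from smooth muscle, lowest. Of 26 keratins 1 rose, Krt222 (2.68), and 2 fell (1 without any 1 of the marked repeats or unmarked repeat 3). Small nucleolar RNA genes outside the chromosome 12 region included Snord35b, which rose by 3.14. Stmn2, a tubulin-binding protein known from neurons, stood at 9.33, 8.92 and 9.26 in marked cells, against 6.46, 5.98 and 6.38 in unmarked cells.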

How the data were processed

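RNA of sorted muscle cells was hybridised to 6 expression arrays, and the deposited table gave log2 intensities for 41345 probe sets on them and on the 12 other arrays of the series, with RMA and Partek named per the submitters' processing notes. The background correction and further steps are not given in the sources used here. The precision is limited by the 3 arrays a population. Array medians ran from 5.04 to 5.10. Probe sets with 1 gene symbol (23521) were kept, so 1814 with several symbols and 16010 with no symbol stayed out. A gene took its brightest probe set, 1082 of 22180 genes having several. A gene was tested where its value passed the 40th percentile of the array on 3 or more of the 6 arrays. A gene under it on all 3 arrays of a population was tested only through the other, also where this is not said above. Only 1 direction of call was open to such a gene.

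Populations were compared with limma 3.58.1 in R 4.3.3 (lmFit and eBayes, 4 residual and 4.3 prior degrees of freedom, two-sided) over the 6 muscle arrays, with Benjamini-Hochberg adjustment over 14844 genes, and the fit was tested on simulated data. The labels call the repeats biological without naming animals, so p-values measure the spread between these samples. Deviations from the population means correlated at 0.284 to 0.326 for same-numbered arrays and at -0.208 to -0.091 for others. Each population was centred on its own mean, so the negative values follow in part from the positive ones. What same-numbered arrays share was not tested. The repeat numbers were taken to pair the samples. Blocked values stand beside a result where the block changes its call or moves its count by over 1.5 times. No pair of arrays held identical values (0 pairs).

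The 98 gene lists, their members and the choice of comparison were made with earlier results of these data known, and some lists were corrected after the files were read. Named genes were the 20 largest increases and decreases whose populations did not overlap, leaving out symbols of predicted, microRNA and small nucleolar RNA genes, the members of each list with the largest changes, uncalled ligands and receptors, Fabp4, Pecam1 and hedgehog genes. The Dlk1-Dio3 region, Olfr558, Stmn2, Car3 and a few members below the top 6 of their list were chosen after their values were seen. Promoter windows and microRNAs are those of RefSeq (GRCm38.p6), matched by symbol, and 11576 tested genes had a window. Figures were drawn with matplotlib 3.10.9 and pandas 2.3.3 in Python 3.11.15.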

Additional observations from a re-analysis of the deposited data

How the results depend on the processing

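With the repeat number as a block (replicate block) 6093 genes passed, 2879 higher and 3214 lower, 5475 of them shared with the unblocked fit. The total was 4837 to 6272 under the all-array fit, the block, other filters, quantile normalization, centring, averaged probe sets and a trended robust variance, 3851 at an adjusted p of 0.01, and 2390 at 2-fold or more, 1065 higher and 1325 lower. Leaving out 1 array gave 4698 to 5111 genes (2148 to 2461 higher, 2491 to 2694 lower), and leaving out a repeat 3741 to 4459 (1714 to 2115 higher, 2027 to 2344 lower), lowest without repeat 3, with fewer arrays in each fit. Of the 5578 calls 4153 held in all 6 fits that left out an array. Of 492 genes named in the text 465 were called, and 0 of these reversed under any alternative run. The block ended 0 of their calls, leaving out an array ended 6 (Acta1, Cd79a, Ckm, H2-Eb1, Slc22a18 and Vegfa) and leaving out a repeat 29. A fit over all 18 arrays ended the calls of H2-Aa, H2-Ab1, H2-DMb2, H2-Eb1, Irf4, Pgf, Tgfbr3 and Cd79a, and a trended robust variance those of Vegfa, Acta1 and Ckm. Testing all genes without a filter ended the call of Ckm. The main fit used muscle arrays only, because earlier work on these values had found that the tumor arrays lack variation between repeats. The tumor spread of single genes is not given here. The counts and lost calls of the all-array fit rest in part on that tumor spread. Of the 27 named genes that did not pass, 9 passed under some alternative and 11 changed sign without passing. Cytosolic ribosomal proteins that fell numbered 34 in the all-array fit and 28 with the trended robust variance, against 17. The causes were not tested. Genes near the 40th percentile have little signal over background, which limits the size of their falls.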
